A study of Oryza sativa with 8 samples.

Results

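The nitrogen response common to a pair of rice varieties, Prasanna and Varadan, was examined in seedling shoots on Affymetrix rice expression arrays. The comparison set the 4 arrays from shoots without nitrogen against the 4 arrays from shoots with supplemented nitrogen, with variety as an additive term, and it used all 8 arrays of the series. The members were chosen by their labels alone. The groups were Prasanna without nitrogen, Prasanna supplemented, Varadan without nitrogen and Varadan supplemented, with 2 arrays each, and the titles mark the nitrogen level as 0 or 100. All seedlings germinated for 7 days, grew for 10 days in Yoshida medium (a standard rice nutrient solution) with nitrogen, and were then moved to Yoshida medium with or without it. The tissue is labelled as a shoot 14 days old, which is less than these times together, and the time spent in the test medium and the hour of harvest are not given in the sources used here. Nothing in the labels says whether replicates were separate cultures, so p-values measure the spread between these arrays, which may be technical.

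Rice takes up nitrogen as ammonium and nitrate. Nitrate is reduced by nitrate reductase and nitrite reductase to ammonium, which glutamine synthetase and glutamate synthase build into amino acids. Nitrate is also a signal, sensed through NIN-like proteins (NLP) and held in check by repressors of the NIGT1 family. A plant short of nitrogen typically recovers it from chloroplast proteins, chlorophyll, purines and urea, and moves it from old leaves to young ones.

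Values are log2 MAS5 signals, in which 1 unit is a doubling, and the median over all probe sets ran from 5.59 to 5.81 without nitrogen and from 5.72 to 6.26 with it. The labelled tissue was checked on markers. The 6 photosynthetic shoot markers found, of 10 listed, lay at or above the 99.8th percentile of all probe sets, with means of 15.23 to 16.62. The 7 root markers lay between 2.34 and 9.90. The silicon transporter Lsi1 was highest, at the 84.2nd percentile, with HKT1;3 at 71.4, RAA1 at 67.2, WOX11 at 56.6 and WOX9 at 51.6. HKT1;3 is the RefSeq name of a locus that had been listed as another HKT gene, so it may not mark roots. Os02g0662000 and the silicon transporter Lsi2 were below the filter level of 4.48. Root markers were thus below the shoot markers but not all low. Replicates correlated across probe sets at a Spearman rho of 0.854 to 0.863. Arrays without nitrogen of different varieties were as alike, at 0.866 between the first arrays and 0.854 between the second. The median SD of replicates among tested probe sets was 0.47 and 0.46 without nitrogen and 0.31 and 0.26 with it, in Prasanna and Varadan in turn. Spiked bacterial hybridisation controls averaged 12.03 to 12.45 without nitrogen against 12.38 to 13.65 with it, and Bacillus labelling controls 10.78 to 11.41 against 11.19 to 12.41. These controls were thus dimmer on average without nitrogen, by 0.83 and 0.77, and their part in the results was not tested. The 3′ minus 5′ signal of the ubiquitin control was -0.12 to 0.28 without nitrogen and 0.32 to 0.73 with it, with no overlap, and that of actin was lower by 0.43 on average without nitrogen and overlapped. The 25S ribosomal RNA control was at 12.06 to 13.07 without nitrogen and 13.07 to 14.00 with it. The 18S control went the other way, at 13.26 to 15.49 without nitrogen and 12.85 to 14.18 with it, higher by 0.69 on average without nitrogen. The part of these measures was not tested either.

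Of the 34316 probe sets tested, 246 (0.717%) differed between the nitrogen levels at an adjusted p under 0.05 (limma, Benjamini-Hochberg over all tested probe sets), a state referred to here as called. Without nitrogen 100 (0.291%) were higher, by 0.92 to 4.76 with a median of 1.52, and 146 (0.425%) were lower, with a median difference of -1.80 and the widest at -8.73. An unadjusted p under 0.05 was reached by 5184, or 15.1%. The lower group held more large changes, with 58 probe sets over 2 log2 units against 20 in the higher group. The 246 probe sets covered 216 loci, of which 44 carry a gene name in RefSeq and 172 are known by locus identifier only. In whole shoots, fewer cells of a type and less RNA per cell cannot be told apart.

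The number of calls depended on single arrays. Without 1 supplemented array it was 0 (Varadan replicate 1, with 3659 probe sets at an unadjusted p under 0.05), 0 (Prasanna replicate 2, with 3925), 2 (Varadan replicate 2) or 41 (Prasanna replicate 1). Without 1 no-nitrogen array it was 117 or 372 in Prasanna and 170 or 83 in Varadan, for replicates 1 and 2 in turn. With a variance prior that takes no account of signal level, 1 probe set was called. All 246 kept their sign in each of these settings, as the selection of clear differences favours. Centring each array on its median raised all differences by 0.32, the gap between the array medians, and turned the split to 271 higher and 81 lower, so that 77.0% of calls were higher in place of 40.7%. Of the 246, 178 were called there too.

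**Figure D1:**
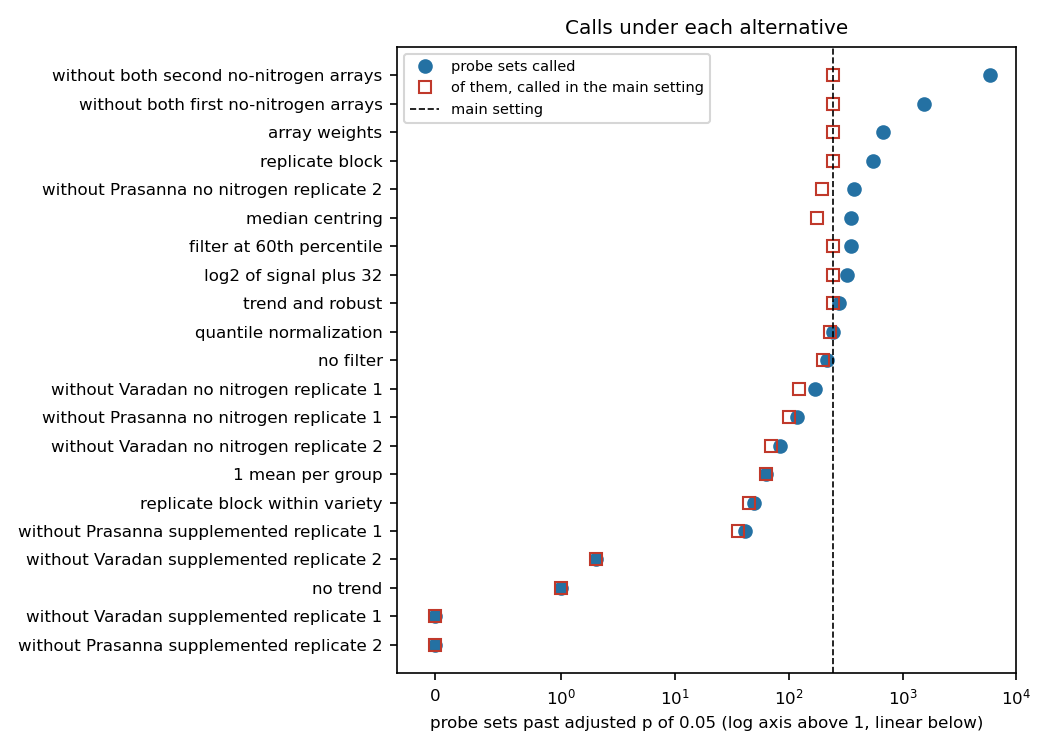
Probe sets past an adjusted p of 0.05 for nitrogen (x, log axis above 1) under each alternative setting (y). Filled circles count all calls, open squares those of them that are among the 246 (dashed line). Calls fell to between 0 and 41 when any 1 supplemented array was left out. The settings without both first or both second arrays without nitrogen keep no replicate pair at that level.

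All 246 called probe sets had 1 sign in Prasanna and Varadan. Selection on the shared effect favours this, and over all tested probe sets the share was 66.7%. The varieties share no array, but their arrays without nitrogen shared a shift. Deviations of same-numbered arrays from their group means correlated at 0.46 between these groups. That shift enters both effects, so the varieties are not independent here. Within Prasanna alone limma called 0 of 34316 probe sets (smallest adjusted p = 0.133, with 2276 at an unadjusted p under 0.05). Within Varadan alone it called 1 (smallest adjusted p = 0.0217, with 3065 likewise). The 246 thus rest on both varieties together. Their median difference in the higher group was 1.47 in Prasanna and 1.51 in Varadan, and in the lower group -1.68 and -1.91. The test of the difference itself, the interaction of nitrogen and variety in limma, called 0 of 34316 probe sets (0%), with 714 at an unadjusted p under 0.05, or 2.08%, and a smallest adjusted p of 1. Among the 246 it had an unadjusted p under 0.05 for 9. Across all tested probe sets the effects in Prasanna and Varadan had a Pearson correlation of 0.35, a description over probe sets that are not independent.

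**Figure D2:**
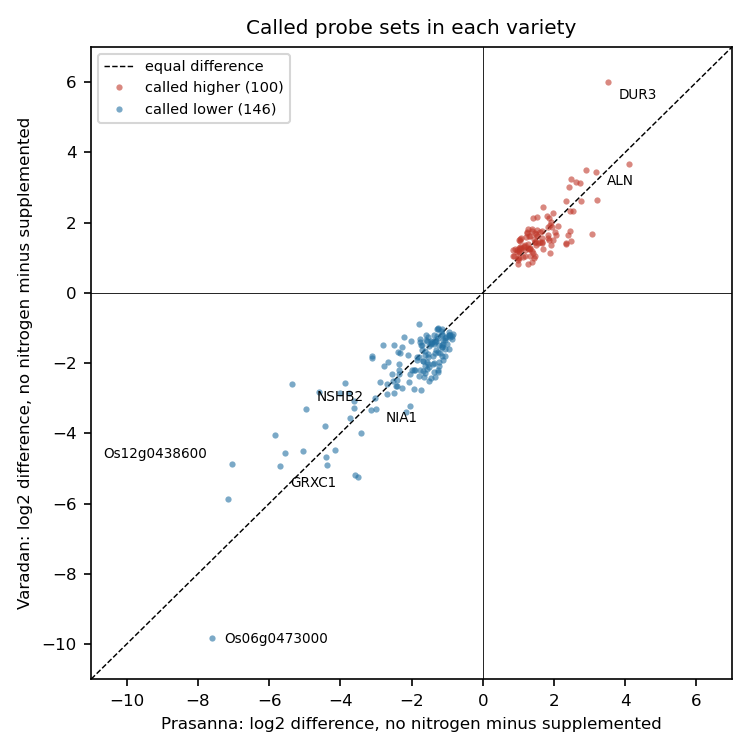
Log2 difference (no nitrogen minus supplemented) of the 246 called probe sets in Prasanna (x) and Varadan (y), each point a difference of means of 2 arrays. Points called higher are red and those called lower are blue, and all lie in quadrants of 1 sign. The dashed line marks equal differences.

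Nitrate reduction was lower without nitrogen in every gene of its list tested, and 3 of 3 were called, against 0.962% of all genes tested. NIA1 (Os08g0468100, also named NR1), a nitrate reductase, gave log2 signals of 13.31 and 13.08 in Prasanna and 13.01 and 13.55 in Varadan without nitrogen, and of 15.76 and 15.62, and 16.29 and 16.00, with it. All 4 arrays without nitrogen lay below all 4 supplemented ones, as was so for 9.63% of tested probe sets in either direction, and NIA1 fell by 2.68 ± 0.20 (SE; n = 4 per level; limma adjusted p = 0.00456). The locus Os01g0357100 of the same list gave 11.86, 10.90, 12.09 and 11.33 without nitrogen against 14.47, 15.17, 15.72 and 15.64 and fell by 3.71 ± 0.30 (adjusted p = 0.00661). Os02g0770800 gave 8.28 and 9.47 on the first and 5.89 and 5.54 on the second arrays without nitrogen, against 11.93 to 12.91. It fell by 5.06 ± 0.83 (adjusted p = 0.0429), and its replicates without nitrogen differed more than those of NIA1.

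Of 6 tested genes of nitrate uptake 0 were called (limma, 1 at an unadjusted p under 0.05). Of the 6, 5 lay above 0, against 51.2% of all genes tested. The list's median deviation (each gene's log2 signal minus its mean over all 8 arrays) was 1.31 and 1.19 on the first arrays without nitrogen but -0.61 and -0.40 on the second, against -0.78 to 0.23 with nitrogen, so the lean above 0 lay on the first arrays. NAR2.2, a partner protein that high-affinity nitrate transporters need, stood at 10.67 and 4.25 in Prasanna and 9.67 and 9.52 in Varadan without nitrogen, against 3.68, 4.20, 5.85 and 7.04. One Prasanna array without nitrogen thus lay within the supplemented range, and the difference was 3.33 ± 1.16 (adjusted p = 0.241).

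Among 7 nitrogen regulators 1 was called, against 0.962% of all genes tested. NLP1 (Os03g0131100), a NIN-like transcription factor, gave 10.94, 11.53, 10.67 and 11.10 without nitrogen and 9.91, 9.89, 9.26 and 9.29 with it, and rose by 1.48 ± 0.20 (adjusted p = 0.0267), or 2.78-fold. Its levels did not overlap between the nitrogen levels, as was so for 9.63% of tested probe sets. NIGT1, a repressor induced by nitrate, stood at 4.93 and 1.34 in Prasanna and 6.60 and 2.51 in Varadan without nitrogen, against 7.19 to 8.27. The levels did not overlap, but the spread without nitrogen was wide and 2 of its 4 arrays lay below the filter level, with a difference of -4.12 ± 1.03 (adjusted p = 0.128). NLP2 stood at -0.92 ± 0.31 (adjusted p = 0.233).

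The largest fall among called genes with a gene name was in a glutaredoxin, GRXC1. Glutaredoxins are small thiol oxidoreductases, and in Arabidopsis some plant-specific members carry signals of nitrogen demand. Non-symbiotic haemoglobins scavenge nitric oxide, which nitrate reductase can form. Of 21 tested genes of this list 4 were called, all lower, against a background of 0.962% of genes called in either direction. GRXC1 (Os01g0368900) gave 6.71, 8.56, 8.56 and 7.26 without nitrogen and 13.58, 13.09, 12.87 and 12.81 with it. The gap between the levels exceeded 4 log2 units on every array, and GRXC1 fell by 5.32 ± 0.45 (adjusted p = 0.00761). NSHB2, a haemoglobin, gave 7.13, 5.26, 8.04 and 6.49 against 11.61, 10.71, 10.77 and 10.40 and fell by 4.14 ± 0.56 (adjusted p = 0.0246). GRXC14 fell by 3.72 ± 0.65 (adjusted p = 0.0488), from 7.70 to 7.99 with nitrogen to 2.06 to 5.45 without, where 1 of 4 arrays lay below the filter level. GRXS10, a bright member, fell by 1.04 ± 0.18 (adjusted p = 0.0441), while its other 2 probe sets stood at -0.81 and -0.15 and were not called. Further members did not pass, with GRXC15 at -3.23 ± 0.67 (adjusted p = 0.0773) and GRXC7 of the other sign at 2.11 ± 0.55 (adjusted p = 0.141). The haemoglobin NSHB1 stood at -0.91 ± 0.43 (adjusted p = 0.362), and the haemoglobin hb3 was below the filter level. The median of the list was -0.34, against 0.02 over all genes tested. After median centring it was -0.03, against 0.33 over all genes tested, and 3 genes were called, all lower. Quantile normalization gave a median of -0.35 and also 3 calls, all lower.

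Genes that recover nitrogen from urea and purines held the largest rises among called genes with a gene name, DUR3 and ALN. DUR3 (Os10g0580400), a high-affinity urea transporter, gave 8.99, 9.51, 8.75 and 9.83 without nitrogen. With nitrogen it gave 6.48 and 4.97 in Prasanna and 3.41 and 3.17 in Varadan, where it lay below the filter level. DUR3 rose by 4.76 ± 0.60 (adjusted p = 0.0196), and its size in Varadan rests in part on signals under that level. ALN (allantoinase, which opens the ring of the purine breakdown product allantoin) gave 11.65, 11.66, 9.98 and 11.81 against 8.42, 8.51, 7.92 and 7.0 and rose by 3.31 ± 0.39 (adjusted p = 0.0186), or 9.93-fold. AAH, the allantoate amidohydrolase that acts after it, stood at 1.09 ± 0.28 (adjusted p = 0.143). Of 9 tested genes of the list DUR3 and ALN were called, against 0.962% of all genes tested, and the median was 0.20.

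Of 18 genes of ammonium uptake and assimilation 0 were called (limma, with 6 under an unadjusted p of 0.05). Among glutamine synthetases of the cytosol GLN1-2 stood at -0.73 ± 0.16 (adjusted p = 0.0934) and GLN1-1 stood at 1.04 ± 0.30 (adjusted p = 0.178). The locus Os01g0882800 of the amino acid carrier list rose by 1.85 ± 0.22 (adjusted p = 0.0186). It gave 9.44, 9.88, 9.76 and 9.31 without nitrogen and 7.75, 7.92, 7.83 and 7.50 with it, and its difference was 1.83 in Prasanna and 1.86 in Varadan.

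**Figure D3:**
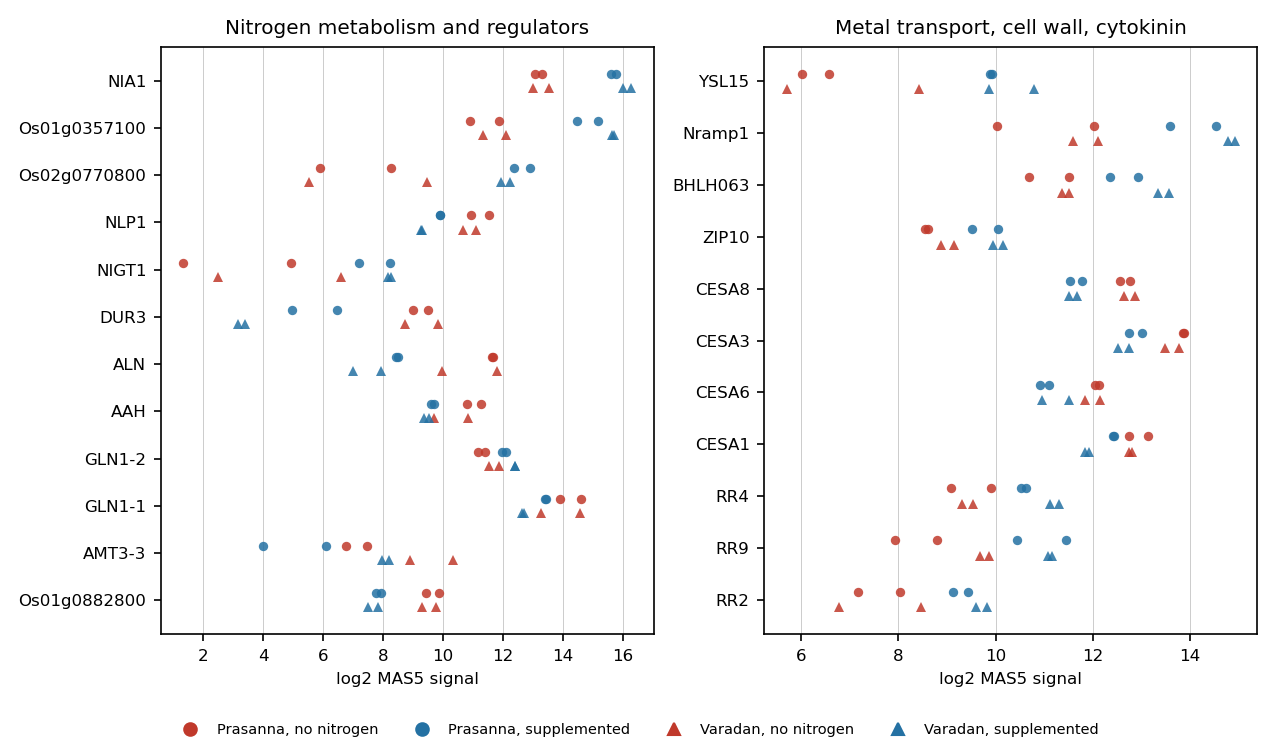
Log2 MAS5 signals (x) of genes of nitrogen metabolism and regulation (left) and of metal transport, cellulose synthesis and cytokinin response (right), 1 point per array. Circles are Prasanna and triangles Varadan, red without nitrogen and blue supplemented. The levels of NIA1 do not overlap, while those of AAH do.

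The iron transporter YSL15 and the metal transporter Nramp1 fell without nitrogen. Grasses take up iron as a complex with secreted phytosiderophores, which YSL15 carries into the cell, while NAS enzymes make the precursor nicotianamine. Of 38 metal transport genes 3 were called, all lower, against 0.962% of all genes tested. YSL15 gave 6.58 and 6.01 in Prasanna and 8.42 and 5.70 in Varadan without nitrogen, against 9.89, 9.93, 9.86 and 10.79, and fell by 3.44 ± 0.54 (adjusted p = 0.039). Nramp1, a metal ion transporter, gave 12.02, 10.04, 12.10 and 11.60 against 13.60, 14.54, 14.92 and 14.78 and fell by 3.02 ± 0.41 (adjusted p = 0.0256). BHLH063, a transcription factor of the iron response also listed as IRO3, fell by 1.78 ± 0.25 (adjusted p = 0.0269). Levels of all 3 genes did not overlap, as the choice of called genes favours, against 9.63% of tested probe sets. The nicotianamine synthases NAS1 and NAS2 stood at -4.61 ± 1.43 and -3.56 ± 0.97 (adjusted p = 0.199 and 0.157), the aminotransferase NAAT1 at -1.64 ± 0.51 (adjusted p = 0.2) and the iron transporter IRT1 at -0.15 ± 0.51. The metallothionein MT4A, from another metal-binding family, gave 12.68, 12.75, 14.34 and 13.14 against 15.96, 15.00, 15.90 and 15.75 and fell by 2.42 ± 0.33 (adjusted p = 0.0243). The list as a whole did not lean 1 way, with a median of -0.11 that became 0.21 under median centring.

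In the phosphate list 2 of 17 genes were called, both higher, against 0.962% of all genes tested. SPX proteins sense phosphate supply and restrain the phosphate starvation regulator PHR2, and SPX2 is itself raised by phosphate shortage. SPX2 gave 11.29, 11.66, 10.44 and 11.32 without nitrogen and 9.35, 9.66, 8.40 and 8.81 with it, and rose by 2.12 ± 0.25 (adjusted p = 0.0186), or 4.35-fold. MGD3, which makes the galactolipids that replace phospholipids in phosphate-starved plants, rose by 1.61 ± 0.26 (adjusted p = 0.0429), with 10.92, 11.49, 10.46 and 11.02 against 9.40, 9.72, 9.61 and 8.72. Other genes of the list were not called, with SPX1 at 0.27 ± 0.21 (adjusted p = 0.569), SPX4 at 0.25 ± 0.20 and PHR2 at 0.08 ± 0.20 (adjusted p = 0.884).

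All 13 tested genes of chlorophyll synthesis lay below 0, against 48.8% of all genes tested, and 11 of 13 did after median centring. One was called. CHL1, also named CHLD and part of the chelatase that inserts magnesium, gave 10.26, 10.34, 10.64 and 10.06 against 11.79, 12.17, 12.30 and 12.28 and fell by 1.81 ± 0.20 (adjusted p = 0.014), or 3.50-fold. The divinyl reductase DVR stood at -1.17 ± 0.24 (adjusted p = 0.0749). In chlorophyll breakdown and senescence 6 of 7 genes lay above 0 and 1 was called, against 51.2% and 0.962% of all genes tested. NYC1, the chlorophyll b reductase that starts the dismantling of the light-harvesting complexes, gave 11.35, 11.94, 11.45 and 11.17 against 10.35, 9.57, 8.82 and 8.94 and rose by 2.05 ± 0.27 (adjusted p = 0.0206), or 4.15-fold. SGR, the stay-green protein that removes magnesium from chlorophyll, stood at 1.73 ± 0.38 (adjusted p = 0.0872). THF1, the member below 0, stood at -0.95 ± 0.18 (adjusted p = 0.0624), and its other 2 probe sets at -0.9 and 0.01.

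Of 9 light-reaction genes 0 were called (limma, 6 at an unadjusted p under 0.05), and all 9 lay below 0, or 8 of 9 after median centring or quantile normalization. Of 10 genes of carbon fixation and photorespiration 7 lay below 0 and 1 was called, against 48.8% and 0.962% of all genes tested. The called gene was Os12g0292400, a locus of the shoot marker list, with 14.84, 15.46, 14.69 and 15.16 against 16.23, 16.29, 17.10 and 16.56. It fell by 1.51 ± 0.26 (adjusted p = 0.0492), or 2.85-fold, and was not called after median centring or quantile normalization. Its other 3 probe sets stood at -2.03 to -0.66 and were not called. By array, the light-reaction genes had a median deviation of -0.52 (Prasanna) and -1.38 (Varadan) on the first arrays without nitrogen and of -0.09 and 0.27 on the second ones. The carbon fixation and photorespiration genes had -0.80 and -1.05 on the first and -0.07 and -0.02 on the second. With nitrogen the light-reaction genes had 0.05 and 0.09 (Prasanna) and 0.92 and 0.60 (Varadan). The carbon fixation and photorespiration genes had 0.25 and 0.22, and 0.81 and 0.48. Both lists were thus lowest on the first arrays without nitrogen, which stood apart in other genes too. The second arrays also lay below the supplemented arrays of their variety. The nitrogen levels did not overlap in 2 of 9 light-reaction genes and in 7 of 10 of the other list. Over all genes tested this was so for 2384 of 21508.

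All 9 tested cellulose synthase genes lay above 0, also after median centring or quantile normalization, against 51.2% of all genes tested. Of the 9, 2 were called, against 0.962% of all genes tested. CESA8 gave 12.76, 12.56, 12.87 and 12.64 against 11.53, 11.77, 11.67 and 11.52 and rose by 1.09 ± 0.16 (adjusted p = 0.0349). CESA3 gave 13.86, 13.87, 13.77 and 13.49 against 12.74, 13.01, 12.53 and 12.74 and rose by 0.99 ± 0.16 (adjusted p = 0.0429), while its other probe set, at 0.77, was not called. Both are subunits of the cellulose synthase of the primary wall, and each about doubled (2.12-fold and 1.99-fold). CESA4 and CESA7, of the secondary wall, stood at 1.5 ± 0.38 and 1.24 ± 0.38 (adjusted p = 0.136 and 0.2). KOB1, named after an Arabidopsis gene needed for cellulose synthesis in elongating cells, rose by 1.32 ± 0.22 (adjusted p = 0.0458), the tubulin TUB8 by 1.29 ± 0.21 (adjusted p = 0.044) and the actin AC7 by 1.26 ± 0.16 (adjusted p = 0.0196). AC7 and TBL11, which acetylates xylan and rose by 1.19 ± 0.19 (adjusted p = 0.0415), fall outside the rule for named genes and were picked after their values were seen. Of 13 phenylpropanoid genes 12 lay above 0 and 1 was called, against 51.2% and 0.962% of all genes tested. The 4-coumarate:CoA ligase Os4CL3 rose by 1.32 ± 0.20 (adjusted p = 0.033), with 11.30, 11.13, 11.05 and 10.84 against 10.36, 9.92, 9.33 and 9.44. Its other tested probe sets, of lower signal, stood at 0.23 and 0.64 and were not called.

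**Figure D4:**
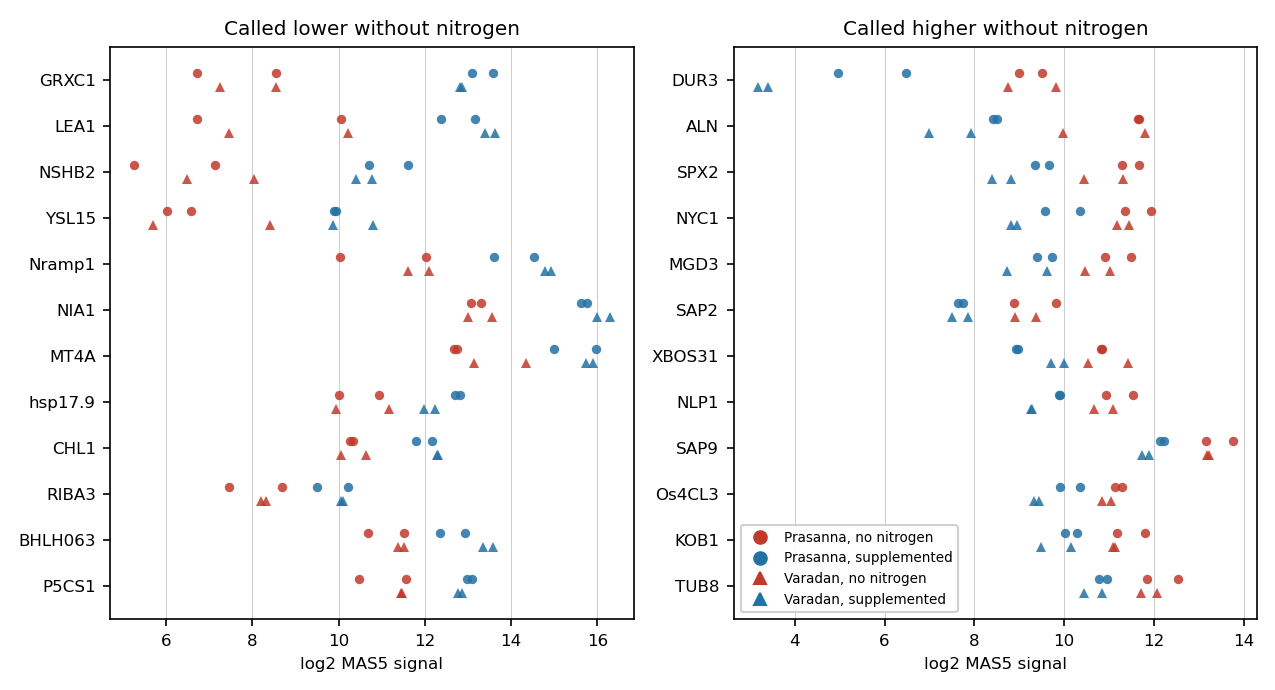
Log2 MAS5 signals (x) of the 12 called genes with a gene name and the largest fall (left) or rise (right) without nitrogen, among those whose higher level reached 7.97, 1 point per array. Circles are Prasanna and triangles Varadan, red without nitrogen and blue supplemented. In each of the 24 genes all red points lie on 1 side of the blue ones, as the choice of called genes favours. Over all tested probe sets this was so for 9.63%.

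RR4, a type-A response regulator of the kind that cytokinin induces and that damps its signal, gave 9.90, 9.09, 9.31 and 9.53 without nitrogen and 10.62, 10.52, 11.31 and 11.13 with it and fell by 1.44 ± 0.25 (adjusted p = 0.0488). RR9 and RR2 stood at -1.97 ± 0.35 and -1.88 ± 0.39 (adjusted p = 0.0518 and 0.0762). Their levels did not overlap, as was so for 9.63% of tested probe sets. RR4 was the only call among 20 cytokinin genes, against 0.962% of all genes tested, and was not called after median centring.

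LEA1 (LEA3-2), a late embryogenesis abundant protein that accumulates in drying tissue, gave 10.05 and 10.21 on the first and 6.72 and 7.45 on the second arrays without nitrogen, against 13.17, 12.38, 13.62 and 13.39. It fell by 4.53 ± 0.77 (adjusted p = 0.0458), more than the difference between its replicates without nitrogen. Of 8 genes of the list it was the only one called, while 7 lay below 0, against 0.962% and 48.8% of all genes tested. The dehydrin RAB16C stood at -6.23 ± 1.0 in Prasanna and -1.43 ± 1.0 in Varadan, with an interaction of 4.80 ± 1.41 (unadjusted p = 0.0108, adjusted p = 1). The other 2 probe sets of RAB16C stood at -3.8 and -0.22 over both varieties and were not called. P5CS1, the enzyme that commits glutamate to proline, fell by 1.69 ± 0.26 (adjusted p = 0.0388) and the small heat shock protein hsp17.9 by 1.92 ± 0.33 (adjusted p = 0.0463). The stress-associated zinc finger proteins SAP2 and SAP9 rose by 1.57 ± 0.27 and 1.34 ± 0.18 (adjusted p = 0.0467 and 0.0249), as did the ankyrin and RING finger protein XBOS31 by 1.51 ± 0.26 (adjusted p = 0.0447). A second probe set of SAP9 stood at 0.62 and was not called. RIBA3, of riboflavin synthesis, fell by 1.80 ± 0.30 (adjusted p = 0.044).

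Loci without a gene name held some of the largest differences. Os06g0473000 gave 10.87, 11.35, 10.93 and 11.20 with nitrogen, and 2.67, 4.34, 1.09 and 1.35 without, all below the filter level. Its difference of -8.73 ± 0.56 (adjusted p = 0.00456) therefore rests on signals under the filter level on all 4 arrays without nitrogen, and it was the 1 call without a variance trend. Os12g0438600 fell by 5.96 ± 0.65 (adjusted p = 0.0148), from 12.49 to 12.94 with nitrogen to 4.87 to 8.85 without. Os01g0800900 fell by 4.78 ± 0.61 (adjusted p = 0.0196) and Os07g0129300 by 4.40 ± 0.70 (adjusted p = 0.0393). In the other direction Os01g0822800 rose by 3.90 ± 0.38 (adjusted p = 0.0116), with 13.36, 11.64, 12.45 and 11.60 against 8.39, 8.36, 8.59 and 8.1. Os02g0575700 rose by 3.19 ± 0.33 (adjusted p = 0.0129), Os04g0419700 by 2.93 ± 0.44 (adjusted p = 0.0349; a second probe set stood at 0.49 and was not called) and Os02g0632800 by 2.91 ± 0.41 (adjusted p = 0.0285). Os01g0717700 gave 13.84, 13.49, 12.85 and 13.53 against 11.05, 11.01, 10.06 and 10.01 and rose by 2.89 ± 0.22 (adjusted p = 0.00456), and its other 2 probe sets were called as well at 2.48 and 2.73.

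Os01g0717700 is the immediate neighbour of SAP2 in the RefSeq gene order, and both rose. Another pair of called neighbours in that order, named after its values were seen, was Os04g0649500 with Os04g0649600 (-2.30 ± 0.37 and -2.18 ± 0.32). Among the 198 called genes that could be placed, 3 adjacent pairs were both called, each pair with 1 sign. The third was Os03g0431200 with Os03g0431932 (-3.35 ± 0.29 and -1.85 ± 0.23). The identifier of the called locus Os03g0431800 falls between theirs, so they may not be true neighbours. Called genes that the RefSeq table does not hold could not be placed, so the count is approximate. It was not set against a share over all tested genes. Whether array probes of neighbouring genes share sequence was not tested.

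The first arrays without nitrogen stood apart from the second in both varieties, as the clock gene CCA1 shows. CCA1, a transcription factor that peaks around dawn, gave 7.97 and 8.56 on the first arrays without nitrogen in Prasanna and Varadan, against 14.82 and 14.64 on the second and 14.57 to 15.01 with nitrogen. PRR1, an evening clock gene, was at 11.93 and 11.82 on the first arrays and at 9.34 to 10.27 on all others. The phosphate exporter family member PHO1-3 gave 2.90 and 1.89 on the first arrays against 7.47 to 8.36 on the others, the aquaporin PIP2-4 5.24 and 6.66 against 9.52 to 12.32, and the photosystem II protein PSB28 9.90 and 9.91 against 12.43 to 14.58. None of these genes was called for nitrogen. In all, 1613 of 34316 tested probe sets (4.70%) differed between first and second arrays without nitrogen by over 2 log2 units in 1 direction in both varieties, against 3 of the 246 called (1.22%), whose choice favours agreement of replicates. All 246 kept their sign without both first arrays without nitrogen and without both second ones, as their choice favours. Each of these fits leaves 1 array without nitrogen per variety. It thus holds no replicate pair at that level, and its calls are not compared. The called probe sets had, by array without nitrogen, a median difference from the supplemented mean of 1.42 to 1.54 in the higher group and of -1.87 to -1.63 in the lower one.

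Other lists held no call for nitrogen in limma. This was so for 27 aquaporins (median -0.60, 12 at an unadjusted p under 0.05), 16 sucrose and SWEET carriers (median -0.11, or 0.21 after median centring, 2 at an unadjusted p under 0.05), 11 clock genes (0.32, 2 likewise) and 7 autophagy genes (0.11, 2 likewise). After median centring 1 aquaporin and 1 clock gene were called higher. The water channels TIP2-2 and TIP4-2 stood at -1.60 ± 0.29 and 2.44 ± 0.46 (adjusted p = 0.0574 and 0.0621). Their levels did not overlap, as was so for 9.63% of tested probe sets. PRR95 of the clock stood at 1.12 ± 0.20 (adjusted p = 0.0525). The sugar carrier SWEET3A stood at 5.39 in Prasanna and 1.02 in Varadan (interaction unadjusted p = 0.0121, adjusted p = 1).

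**Figure D5:**
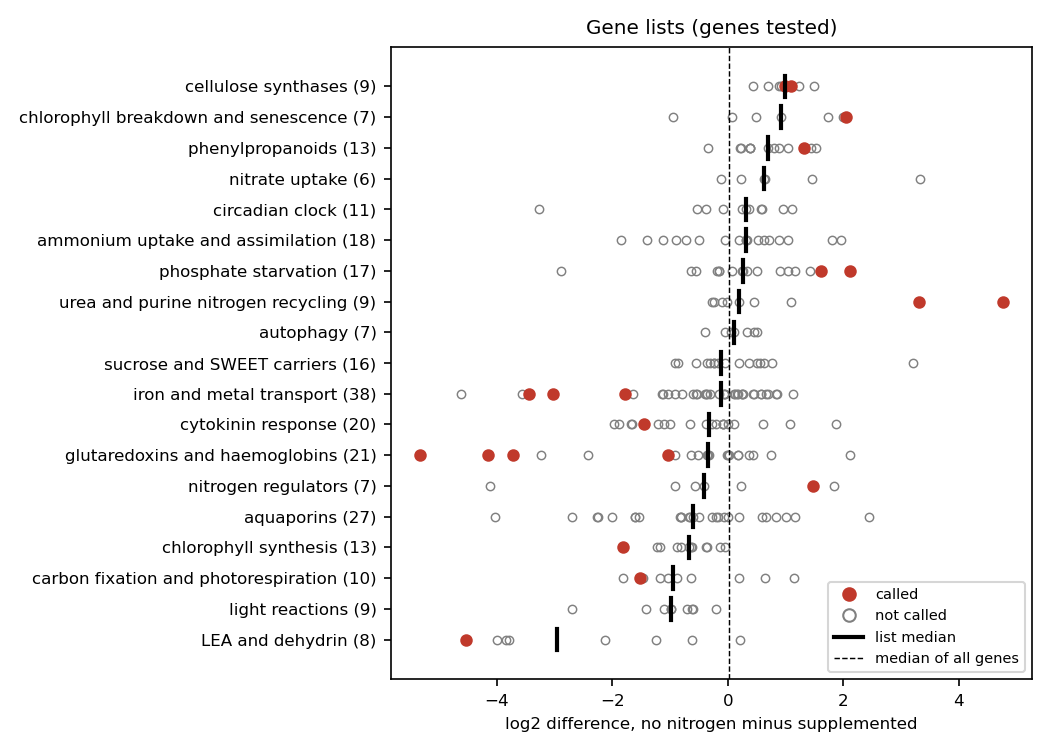
Log2 difference without minus with nitrogen (x) of each tested gene in the lists with at least 5 genes tested (y, number of genes in brackets). Red points are called, open points are not, black bars are list medians and the dashed line is the median of all genes tested, 0.02. Medians run from -2.96 for LEA and dehydrin genes to 0.99 for cellulose synthases.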

How the data were processed

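Per the submitters' processing notes, arrays were summarised with MAS5 (no version is stated there). The deposited log2 table holds 57381 probe sets, and a second deposited table holds the same signals as linear intensity values, whose log2 differed by at most 3.0e-08. The trimmed mean of the linear signals was 500.0 on every array. Scanner images and detection calls were not analysed here, so another background correction could not be tried, and precision is limited by how few arrays there were. The tests did not include the 187 control probe sets. Gene identifiers came from the deposited table (34860 probe sets with 1 gene, 567 with several, 21767 with none) and names from RefSeq (ASM3414082v1), matched by gene ID for 30586 probe sets. One probe set stood for a gene, the one with the highest mean.

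A probe set was tested if its mean log2 reached the 40th percentile over all arrays, 4.48. Nitrogen and variety were fitted as additive terms with limma 3.58.1 in R 4.3.3 (lmFit, eBayes with trend, 5 residual degrees of freedom), 2-sided, with Benjamini-Hochberg adjustment. Differences are no nitrogen minus supplemented, and errors are standard errors. Differences within each variety and the interaction came from a fit with 1 mean per group. The fit was also run on simulated data with independent errors and the same spread on every array. That run does not cover the shared shift or the wider spread of the arrays without nitrogen. Named genes were the 12 largest called changes per direction with a gene name and the 5 largest without, with the higher level at or above the median tested signal (7.97), and up to 4 genes of smallest p per list; other genes named were picked for their role after their values were seen. A locus reached through the ambiguous name FC1 was dropped from the chlorophyll list. Lists were described by counts and medians, without set tests. The comparison, lists and tests were chosen with earlier results of these data known. Promoter motifs and protein sequences were not analysed here. Alternatives covered the model, the replicate block, the variance prior, array weights, scaling, filters, and arrays left out.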

Additional observations from a re-analysis of the deposited data

Results flagged for a closer look

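Each of the 202 sets of 4 arrays (101 named genes at 2 nitrogen levels) was searched for 1 array whose gap to its nearest neighbour was, as a share of the set's range, above Dixon's 95% critical value. It found 10, where chance gives about 1 in 20. Of these, 5 were in called genes. Without nitrogen ALN was at 9.98 on the first Varadan array against a median of 11.66 on the others, and the first Prasanna array held SAP9 at 13.77 against 13.19, KOB1 at 11.80 against 11.13 and P5CS1 at 10.47 against 11.48. With nitrogen YSL15 was at 10.79 on the second Varadan array against 9.89. The other 5 were not called for nitrogen. The second Prasanna array with nitrogen held NAR2.1 at 4.48 against 7.74, NIGT1 at 7.19 against 8.22 and CKX5 at 6.41 against 6.96. Without nitrogen Os11g0157600 was at 12.22 on the first Varadan array against 12.07, and CESA1 at 13.14 on the second Prasanna array against 12.74. The causes were not tested.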

How the results depend on the processing

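Counts of called probe sets are given as total, higher and lower, against 246, 100 and 146. They were 63, 21 and 42 with 1 mean per group, 672, 268 and 404 with array weights, 1, 0 and 1 without a variance trend, 350, 157 and 193 with a filter at the 60th percentile, and 352, 271 and 81 after median centring. Leaving out 1 array gave 0 to 372 in total, 0 to 167 higher and 0 to 205 lower. Leaving out both first arrays without nitrogen gave 1541, 600 and 941, and both second ones 5856, 2875 and 2981; the cause was not tested. Quantile normalization, no filter, an added 32 signal units and a robust variance prior gave 215 to 321 in total. All of the 246 that were tested kept their sign in every one of these settings. The interaction had 0 calls in each of its alternatives (no filter, no trend, quantile normalization).

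Deviations of same-numbered arrays correlated at 0.46 between the groups without nitrogen, which shared a shift, and at -0.04 to 0.11 between the other groups, so the numbers were not taken to pair arrays across nitrogen levels. A replicate block gave 545, 259 and 286 calls, and a block within variety 49, 16 and 33. Among uncalled genes LFNR1, at -0.30, turned to 0.02 after median centring, to 0.05 without Varadan no-nitrogen replicate 1 (the lowest without 1 array was -0.51) and to 0.18 without both first arrays. Os10g0554200, at 0.62, turned to -0.64 without both first arrays. The cause was not tested. Signals under 4.48 were not tested against background, since no detection calls were used, and 2 arrays per group limit the precision.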
